A study of Homo sapiens with 4 samples.

Results

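The KLF (Krüppel-like factor) genes KLF2, KLF3, KLF4, KLF5, KLF6, KLF7, KLF9, KLF10, KLF11 and KLF13 were followed in 2 human cancer cell lines exposed to CPYPP. These 10 genes were taken by symbol from a count table of 61806 genes, and each had at least 10 counts in every library. CPYPP is a small molecule known as an inhibitor of DOCK proteins, which activate the GTPase Rac. The groups were MDA-MB-231 breast cancer cells, as a control and with CPYPP, and MDA-MB-435 melanoma cells, as a control and with CPYPP. All were labelled wild type, the exposure lasted 6 h, the dose was 10 µM, and there was 1 RNA-seq library per group, made from polyadenylated RNA. What the control cells received is not given in the labels. The comparison addressed whether the RNA of these transcription factors changed with CPYPP in each line.

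KLF proteins bind GC-rich and CACCC-type DNA through zinc fingers at their C-terminal end, and SP proteins, their closest relatives, bind the same kind of sequence. The families of activators and repressors differ in the N-terminal part. KLF2, KLF4, KLF5, KLF6 and KLF7 are known mainly as activators that recruit acetyltransferases such as p300. KLF3 recruits the corepressor CtBP, and KLF9, KLF10, KLF11 and KLF13 recruit the corepressor SIN3A. Several of these genes are transcribed rapidly and transiently after growth factors, hormones or stress, and KLF4, KLF5 and KLF6 are much studied in epithelial tumours.

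Reads counted on genes came to between 17196385 and 22663954 per library, and both CPYPP libraries held fewer than their controls. The cell line labels were checked against 7 melanocyte and 6 epithelial or breast markers, given here as control and CPYPP counts. The melanocyte markers SOX10 (0 and 1 in MDA-MB-231, against 3031 and 707 in MDA-MB-435) and DCT (1 and 3, against 658 and 464) followed the labels. SOX10 was also called lower with CPYPP in MDA-MB-435. MITF did not separate the lines (1585 and 690, against 1405 and 809), and the pigment genes TYR, MLANA, PMEL and TYRP1 had between 0 and 34 counts in every library. Of the epithelial or breast markers, EPCAM (387 and 287, against 2 and 0), CDH1 (837 and 464, against 0 and 0), KRT19 (3953 and 2225, against 4 and 0) and KRT8 (12813 and 9549, against 522 and 310) were higher in the breast cancer line, while KRT18 was high in both (8212 and 5653, against 5740 and 4077) and ESR1 was low in both (2 and 9, against 24 and 20). Folds are ratios of the CPYPP library to the control library after scaling by TMM, a normalization that sets the bulk of genes level between 2 libraries. Each fold is followed by its 95% exact binomial (Clopper-Pearson) interval, which covers counting error only. Adjusted p-values come from an exact binomial test of each gene (two-sided), corrected by Benjamini-Hochberg over all genes with at least 10 counts in 1 of the line's 2 libraries. Such a test compares 2 libraries, not the conditions, because no culture was repeated. A gene is called where the adjusted p is under 0.05 and the fold is over 2, and "higher" and "lower" without that word mean an adjusted p under 0.05 at any fold. In bulk RNA, fewer cells that express a gene and less RNA per cell cannot be told apart.

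Promoter sequence was available from RefSeq (GRCh38.p14) for 8 of the 10 genes, at 13 start sites, and is shown for 5 of them, chosen after their values were seen. KLF5 and KLF11 had the largest folds in MDA-MB-435, and KLF6, KLF9 and KLF13 moved in opposite directions in the 2 lines. For each start site the 250 bases upstream were searched on both strands, and the part free of annotated exons is printed 5′ to 3′ on the gene's strand. KLF5 (chr13:73054726-73054975, plus strand) is shown for a TATAAA, in capitals. This window (40.8% GC) belongs to the start site at 73054976. KLF5 also has a start site at 73059005, whose window (70.8% GC) is not printed and held GGGCGG and CCAAT but no TATAAA. KLF11 (chr2:10043971-10044174, plus strand) is shown for the full cAMP response element TGACGTCA, in capitals. The window of its other start site, at 10043829, is not printed. KLF6 (chr10:3785282-3785459, minus strand), KLF9 (chr9:70414658-70414907, minus strand) and KLF13 (chr15:31326585-31326834, plus strand) are shown for CCAAT, in capitals, which reads ATTGG where it lies on the other strand.
KLF5: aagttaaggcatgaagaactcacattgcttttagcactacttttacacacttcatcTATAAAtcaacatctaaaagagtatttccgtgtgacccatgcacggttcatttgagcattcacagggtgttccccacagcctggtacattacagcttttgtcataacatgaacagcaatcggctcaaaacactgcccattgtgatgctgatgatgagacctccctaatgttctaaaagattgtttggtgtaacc
KLF11: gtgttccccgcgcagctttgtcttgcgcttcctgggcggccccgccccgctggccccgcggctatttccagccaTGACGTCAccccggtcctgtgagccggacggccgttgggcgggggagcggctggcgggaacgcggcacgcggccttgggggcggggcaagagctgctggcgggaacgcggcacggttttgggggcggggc
KLF6: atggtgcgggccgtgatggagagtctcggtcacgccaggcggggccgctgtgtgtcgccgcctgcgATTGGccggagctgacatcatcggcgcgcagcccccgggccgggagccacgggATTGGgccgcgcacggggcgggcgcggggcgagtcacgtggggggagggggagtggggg
KLF9: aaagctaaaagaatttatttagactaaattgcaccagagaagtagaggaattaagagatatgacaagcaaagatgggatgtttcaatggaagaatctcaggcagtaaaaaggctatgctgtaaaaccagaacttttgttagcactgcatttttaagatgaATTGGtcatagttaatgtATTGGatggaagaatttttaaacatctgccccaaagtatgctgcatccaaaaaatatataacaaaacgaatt
KLF13: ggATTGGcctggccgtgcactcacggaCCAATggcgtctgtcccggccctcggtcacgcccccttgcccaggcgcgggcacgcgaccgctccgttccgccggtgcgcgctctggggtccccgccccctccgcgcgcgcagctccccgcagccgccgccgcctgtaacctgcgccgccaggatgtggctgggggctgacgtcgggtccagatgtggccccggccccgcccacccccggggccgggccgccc
TGACGTCA lay at -176 to -169 from the KLF11 start site at 10044221 and in no other window of these genes, and 1.65% of 35114 promoters in the table held it. TATAAA lay at -194 to -189 from the KLF5 start site at 73054976, in 1 of the 13 windows, against 10.7% of all promoters. CCAAT was in 6 of the 13 windows (32.0% of all promoters), and it occurred at 2 places in each of the KLF6, KLF9 and KLF13 windows printed above. The GC box GGGCGG, a binding sequence of the SP and KLF proteins themselves, was in 8 of the 13 windows, against 42.6% of all promoters, and CCACCC was in 2, against 31.3%. The AP-1 site TGANTCA and the antioxidant response core TGACNNNGC were in none of the 13. The shorter site TGACG was in 4 windows (21.2% of all promoters), and in KLF11 it overlaps the full element. GAANNTTC, the core of the heat shock element, was in 1 window, of KLF7 (5.78% of all promoters), and the CArG box was in another position of that window (1.16%). These matches describe letters in a window only.

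In MDA-MB-231 none of the 10 KLF genes was called higher, where 4.22% of the 16441 genes tested were, and none was called lower (3.09% of all). At any fold, 4 were higher, namely KLF3, KLF5, KLF9 and KLF13 (24.2% of all genes tested were higher), 3 were lower, namely KLF6, KLF7 and KLF10 (20.9% of all), and KLF2, KLF4 and KLF11 had adjusted p-values above 0.05. In MDA-MB-435, KLF5 was called higher (1 of 10, against 3.17% of 16527 genes) and none was called lower (6.52% of all). At any fold, 6 were higher, namely KLF2, KLF3, KLF4, KLF5, KLF6 and KLF11 (27.6% of all), and 4 were lower, namely KLF7, KLF9, KLF10 and KLF13 (23.2% of all). These counts rest on counting error alone. A biological coefficient of variation of 0.1 between cultures was also assumed, which no repeated culture could check. The fit of both lines together, described below, gave 0.121, a value that includes differences in response between the lines. At 0.1, KLF5 (adjusted p = 0.0455, edgeR's exact test) was the only member left in MDA-MB-231. KLF5 (0.00211), KLF10 (0.000173) and KLF11 (0.000361) were left in MDA-MB-435, and with 0.2 none was left in either line.

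**Figure D1:**
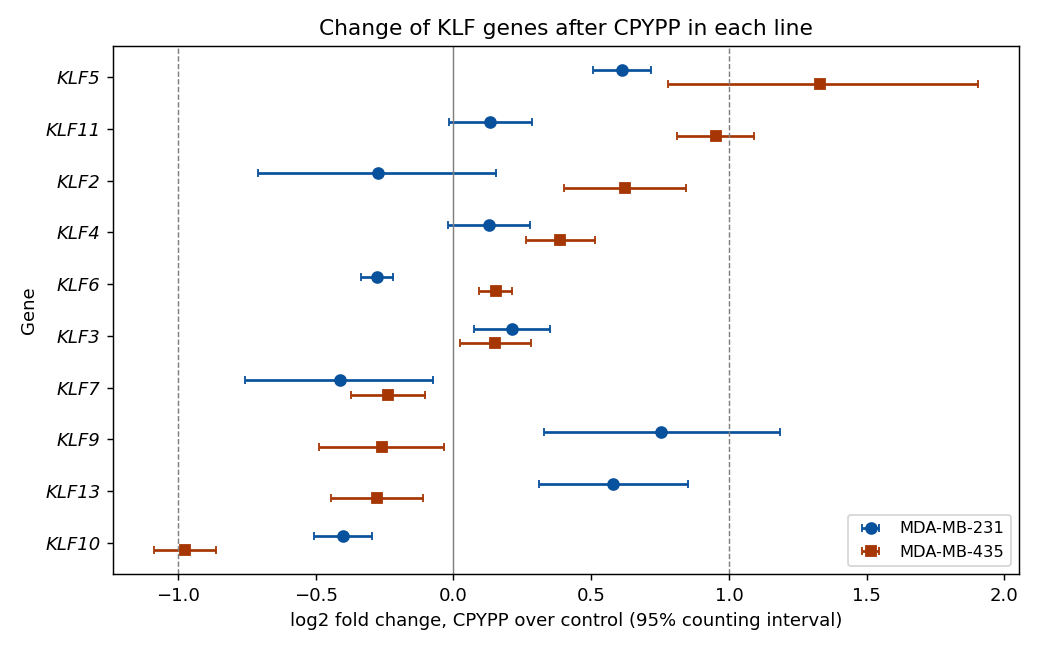
Log2 fold change of each of the 10 KLF genes (horizontal axis, CPYPP over control) in MDA-MB-231 (circles) and MDA-MB-435 (squares), with bars for the 95% counting interval and dashed lines at a fold of 2 in either direction. KLF5 stands to the right of 0 and KLF10 to the left in both lines, while KLF6, KLF9 and KLF13 lie on opposite sides of 0 in the 2 lines.

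KLF5, KLF2, KLF4, KLF6 and KLF7 are the members of the activator group. KLF5, a factor of proliferating basal and intestinal epithelium, had 1396 control and 1564 CPYPP counts in MDA-MB-231, against 42 and 82 in MDA-MB-435. It was higher with CPYPP in both lines, although its level differed widely between them. Its fold was 1.53 (1.42 to 1.64, adjusted p = 2.27e-29, exact binomial test) in MDA-MB-231, against 2.52 (1.72 to 3.74, adjusted p = 2.83e-06) in MDA-MB-435. The latter value rests on few counts, and its interval extends to both sides of the fold threshold of 2.

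KLF2, which maintains quiescence in endothelium and T cells, had 122 and 74 counts in MDA-MB-231 (control and CPYPP), against 313 and 374 in MDA-MB-435. After scaling it was higher in MDA-MB-435, with a fold of 1.54 (1.32 to 1.80, adjusted p = 8.40e-08, exact binomial test). In MDA-MB-231 the fold was 0.828 (0.612 to 1.11, adjusted p = 0.331), so no difference was detectable at this depth. KLF4, a reprogramming factor that also drives epithelial differentiation, had 834 and 669 counts in MDA-MB-231, against 1029 and 1044 in MDA-MB-435. It followed KLF2 in being higher in MDA-MB-435 alone by the test, at a fold of 1.31 (1.20 to 1.43, adjusted p = 5.71e-09), against 1.09 (0.987 to 1.21, adjusted p = 0.154) in MDA-MB-231. The ratio of the 2 folds, MDA-MB-435 over MDA-MB-231, was 1.86 (1.34 to 2.58) for KLF2 and 1.19 (1.05 to 1.37) for KLF4, with intervals for counting error only.

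KLF6, described as a tumour suppressor and the most abundant member in all 4 libraries, had 6170 and 3729 counts in MDA-MB-231, against 4914 and 4239 in MDA-MB-435. It was lower with CPYPP in MDA-MB-231, at a fold of 0.825 (0.792 to 0.859, adjusted p = 1.35e-19, exact binomial test). In MDA-MB-435 it was slightly higher, at 1.11 (1.07 to 1.16, adjusted p = 1.73e-06), and the fold there was 1.00 when libraries were scaled by total counts. KLF7, a factor of neuronal development, had 207 and 114 counts in MDA-MB-231, against 1167 and 768 in MDA-MB-435. It was lower in both lines, with folds of 0.752 (0.593 to 0.949, adjusted p = 0.0354) and 0.849 (0.774 to 0.930, adjusted p = 0.00121).

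KLF3, the CtBP-binding member and a repressor in erythroid and fat cells, had 942 and 800 counts in MDA-MB-231, against 1073 and 925 in MDA-MB-435. Its folds of 1.16 (1.05 to 1.28, adjusted p = 0.00663, exact binomial test) and 1.11 (1.02 to 1.21, adjusted p = 0.0387) were the most alike of the family in ratio, 0.959 (0.843 to 1.09). Scaling by total counts took KLF3 above an adjusted p of 0.05 in both lines. KLF3 shares 266 exon bases with the opposite-strand KLF3-AS1, which had between 1 and 11 counts, and the strand setting of the counting is not given in the sources used here.

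The SIN3A-binding members split into pairs. KLF10, an early gene of TGF-β signalling on chromosome 8, had 2066 and 1147 counts in MDA-MB-231, against 2286 and 903 in MDA-MB-435. It was lower with CPYPP in both lines, with a fold of 0.758 (0.704 to 0.815, adjusted p = 2.63e-13, exact binomial test) in MDA-MB-231. Its fold in MDA-MB-435 was 0.509 (0.471 to 0.550, adjusted p = 6.09e-70), which is 1.96-fold lower (1.82 to 2.12) and just short of the fold threshold. There KLF10 was called lower under total counts (0.459), upper quartile (0.472) and a TMM scaling over all 4 libraries (0.492). KLF11, its closest relative and likewise induced by TGF-β, had 810 and 651 counts in MDA-MB-231, against 704 and 1056 in MDA-MB-435. It was higher in MDA-MB-435, at a fold of 1.93 (1.76 to 2.13, adjusted p = 1.45e-41), where its raw count also exceeded that of the control despite the smaller library. In MDA-MB-231 its fold was 1.10 (0.988 to 1.22, adjusted p = 0.147). The related pair thus lay on opposite sides of 1 in MDA-MB-435, with 95.6% of the genes tested below KLF11 in log2 fold change and 10.2% below KLF10. KLF11 shares 416 exon bases with an opposite-strand transcript, AC104794.4, that had at most 2 counts in any library.

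KLF9 and KLF13, the other pair, were higher with CPYPP in MDA-MB-231 but lower with it in MDA-MB-435. KLF9, a gene induced by glucocorticoids, had 85 and 105 counts in MDA-MB-231, against 412 and 267 in MDA-MB-435. Its folds were 1.69 (1.25 to 2.27, adjusted p = 0.00138, exact binomial test) and 0.836 (0.714 to 0.977, adjusted p = 0.0449). KLF13, a regulator of chemokine transcription in T cells, had 219 and 240 counts in MDA-MB-231, against 756 and 484 in MDA-MB-435. Its folds were 1.50 (1.24 to 1.80, adjusted p = 7.28e-05) and 0.826 (0.735 to 0.927, adjusted p = 0.00269). The ratio of folds, MDA-MB-435 over MDA-MB-231, was 0.496 (0.358 to 0.686) for KLF9 and 0.552 (0.445 to 0.685) for KLF13.

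Between the lines, 2 members were higher in each (KLF3 and KLF5, 16.9% of the 14262 genes with a test in both) and 2 were lower in each (KLF7 and KLF10, 10.3% of all). Opposite directions, past an adjusted p of 0.05 in both lines, were found for 3 members, KLF6, KLF9 and KLF13, against 4.82% of all genes. The number was 2 where KLF6 in MDA-MB-435 missed the threshold (adjusted p = 0.920 under total counts and 0.236 under upper quartile, exact binomial test) and where KLF9 there did (0.0735 with no filter on low counts). The interval of the ratio of folds left out 1 for 8 of the 10 members, all but KLF3 and KLF7, against 43.2% of the 13969 genes with more than 3 counts in all 4 libraries. Both the test and the interval depend on depth, and the members had at least 42 counts in each library. None of the shares over all genes in this comparison was matched to that depth, so none marks the family as unusual. The ratios ran from 0.496 for KLF9 to 1.86 for KLF2, with 0.672 (0.605 to 0.747) for KLF10, 1.35 (1.27 to 1.43) for KLF6, 1.65 (1.13 to 2.40) for KLF5 and 1.76 (1.53 to 2.03) for KLF11. With 1 library per condition, the difference between the lines had no replicate to be tested against.

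**Figure D2:**
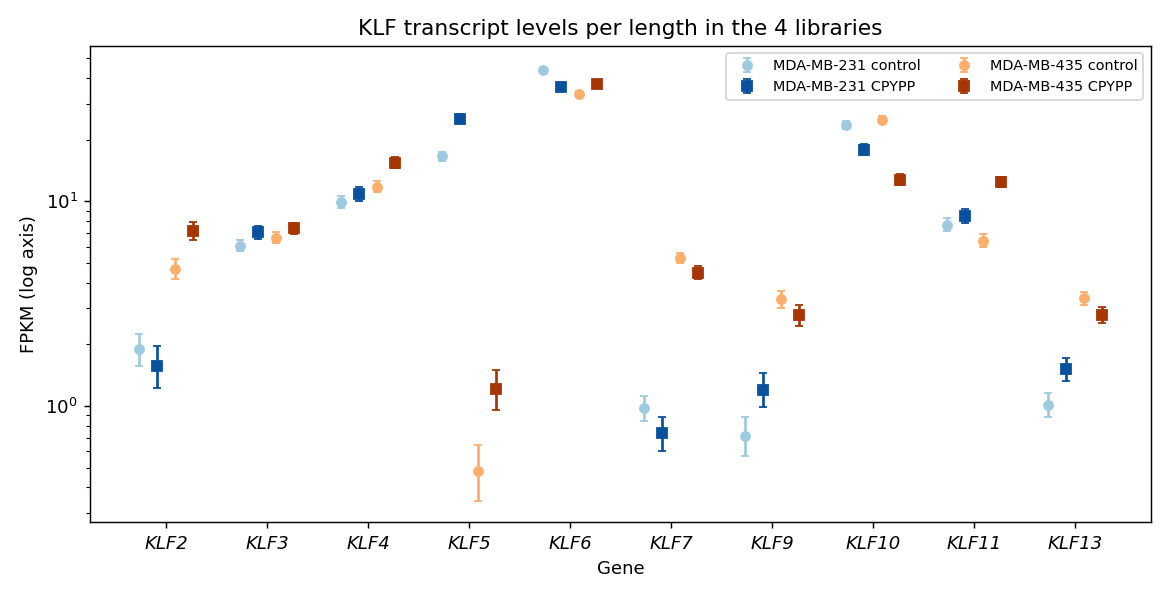
Level of each KLF gene in FPKM (vertical log axis) in the 4 libraries, with circles for control, squares for CPYPP and bars for the 95% counting interval. KLF6 is the highest point in every library, and KLF5 spans the widest range, from 0.478 FPKM in the MDA-MB-435 control library to 25.3 FPKM in the MDA-MB-231 CPYPP library.

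Levels per length were expressed as FPKM, computed from the counts, the deposited exon lengths and the scaled library sizes. In control MDA-MB-231 cells the order was KLF6 (43.9 FPKM), KLF10 (23.6), KLF5 (16.6), KLF4 (9.94), KLF11 (7.70), KLF3 (6.07), KLF2 (1.89), KLF13 (1.01), KLF7 (0.976) and KLF9 (0.713), and neighbours overlapped in counting interval only among the last 3. In the MDA-MB-435 control library it was KLF6 (33.5), KLF10 (25.1), KLF4 (11.8), KLF3 (6.64), KLF11 (6.42), KLF7 (5.28), KLF2 (4.65), KLF13 (3.36), KLF9 (3.32) and KLF5 (0.478). Here KLF3 and KLF11, KLF7 and KLF2, and KLF13 and KLF9 overlapped. The controls of the 2 lines shared the leading pair, and KLF5 stood next behind it in MDA-MB-231 but last in MDA-MB-435.

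Between the 2 control libraries KLF5 was 35.6-fold higher in MDA-MB-231 (26.2 to 49.7), the widest gap of the 10. KLF7, KLF9, KLF13 and KLF2 were higher in the MDA-MB-435 control library, by 5.26-fold (4.53 to 6.13), 4.52-fold (3.57 to 5.78), 3.22-fold (2.77 to 3.76) and 2.39-fold (1.94 to 2.98). KLF3 and KLF10 differed little, with ratios of MDA-MB-435 over MDA-MB-231 of 1.06 (0.973 to 1.16) and 1.03 (0.972 to 1.10), while KLF4 was at 1.15 (1.05 to 1.26), KLF11 at 0.811 (0.732 to 0.898) and KLF6 at 0.743 (0.716 to 0.772). No test was run between the controls, so "higher" here describes the ratio and its counting interval alone. Line and library cannot be told apart in these ratios. After CPYPP, KLF9 and KLF13 lay closer together between the lines, at 1.20 and 1.52 FPKM in MDA-MB-231, against 2.77 and 2.77 FPKM in MDA-MB-435.

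With CPYPP the order changed near the top. In MDA-MB-231, KLF5 (25.3 FPKM) passed KLF10 (17.9 FPKM) to stand behind KLF6 (36.2 FPKM). In MDA-MB-435, KLF10 fell to 12.8 FPKM, below KLF4 at 15.4 FPKM and level with KLF11 at 12.4 FPKM within counting error, while KLF6 stood at 37.3 FPKM. KLF2 reached 7.17 FPKM there, level with KLF3 at 7.38 FPKM.

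**Figure D3:**
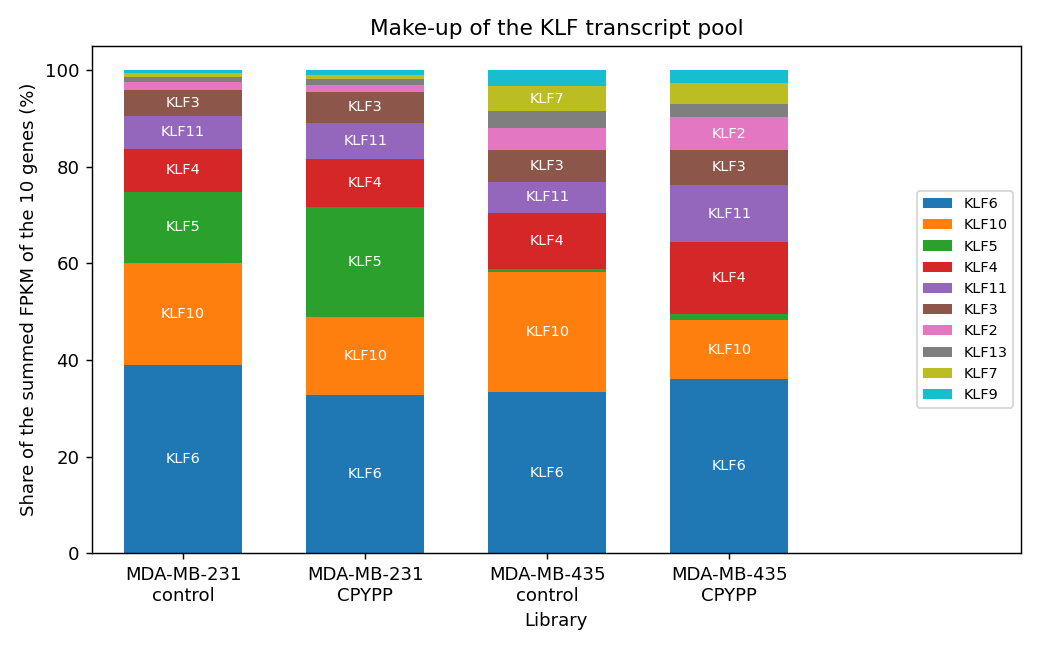
Share of each gene in the summed FPKM of the 10 KLF genes (vertical axis, percent) in the 4 libraries, with 1 stacked bar per library. KLF5 widens from 14.7% to 22.9% with CPYPP in MDA-MB-231, and KLF10 narrows from 24.9% to 12.3% in MDA-MB-435.

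The summed level of the family moved less than its make-up. In MDA-MB-231 the 10 genes took 0.0575% of the control counts and 0.0529% of those with CPYPP. The corresponding shares were 0.0560% and 0.0520% in MDA-MB-435. After TMM scaling, the fold of their summed counts was 0.966 (0.940 to 0.992) in MDA-MB-231, against 1.03 (1.00 to 1.06) in MDA-MB-435. In MDA-MB-435 the direction thus depended on the scaling, with a smaller share of counts but a TMM fold above 1. With each member left out in turn, the fold ran from 0.897 (without KLF5) to 1.10 (without KLF6) in MDA-MB-231 and lay above 1 without KLF6 or KLF10. In MDA-MB-435 it ran from 0.977 (without KLF11) to 1.14 (without KLF10) and lay below 1 without KLF11 or KLF6. Within the summed FPKM, KLF6 held 39.1% and 32.7% in MDA-MB-231, against 33.4% and 36.0% in MDA-MB-435, in control and CPYPP. As KLF6 fell in MDA-MB-231, KLF10 fell too, from 21.0% to 16.1%, while KLF5 rose from 14.7% to 22.9%. In MDA-MB-435, KLF10 went from 24.9% to 12.3%, while KLF11 went from 6.39% to 12%, KLF4 from 11.7% to 14.9% and KLF2 from 4.63% to 6.91%.

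A common effect of CPYPP was then fitted by the quasi-likelihood test of edgeR over all 4 libraries, with the cell line as a block, which uses the 2 lines as the repeat of the treatment and leaves 1 residual degree of freedom. KLF10 and KLF5 passed an adjusted p of 0.05. KLF10 was lower, with a log2 fold change of -0.73 (SE 0.154, adjusted p = 0.0194, edgeR), in a test where 2.85% of 16801 genes were lower. KLF5 was higher, with 0.80 (SE 0.183, adjusted p = 0.0266), where 4.39% of genes were higher, and its adjusted p was 0.0523 with DESeq2. KLF11 followed with a log2 fold change of 0.50 (SE 0.182, adjusted p = 0.136). The other 7 members had adjusted p-values between 0.222 and 0.898, with log2 fold changes from -0.36 for KLF7 to 0.22 for KLF4. The block removes the levels of the lines but not the differences between their responses, which this test counts as error.

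Of the 8 other KLF genes of the table, 5 had at least 10 counts in a library. KLF12, a CtBP-binding relative of KLF3, had 759 and 717 counts in MDA-MB-231, against 1059 and 787 in MDA-MB-435. Like KLF9 and KLF13 it was higher in MDA-MB-231, at 1.29 (1.16 to 1.43, adjusted p = 6.29e-06, exact binomial test), while its fold in MDA-MB-435 was 0.958 (0.873 to 1.05, adjusted p = 0.478). KLF16, a SIN3A-binding member, had 780, 505, 1219 and 782 counts in the same order and was lower in MDA-MB-435, at 0.827 (0.755 to 0.906, adjusted p = 0.000115). KLF15 was called lower in MDA-MB-231 on 29 and 8 counts (fold 0.377, 0.149 to 0.844, adjusted p = 0.0286), and KLF14 was called lower in MDA-MB-435 on 19 and 3 counts (0.204, 0.0386 to 0.692, adjusted p = 0.0103). KLF17 had 25 and 17 counts in MDA-MB-231 (0.928, 0.470 to 1.79, adjusted p = 0.925) and at most 7 in MDA-MB-435. KLF8 had at most 5 counts, and KLF1 and KLF18 were at 0, which allows a scaled level of up to 0.126 to 0.179 CPM per library at a floor of 3 counts.

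Among the SP genes, SP6, a factor of tooth and skin epithelium, showed the widest difference. It had 79 and 213 counts in MDA-MB-231, against 137 and 168 in MDA-MB-435, and was called higher in MDA-MB-231 at 3.68 (2.83 to 4.83, adjusted p = 5.93e-25, exact binomial test). In MDA-MB-435 it was higher at 1.58 (1.25 to 2.0, adjusted p = 0.000216). SP3 had 4040 and 2747 counts in MDA-MB-231, against 3660 and 3676 in MDA-MB-435, and like KLF6 it was lower in MDA-MB-231 cells, at 0.928 (0.884 to 0.974, adjusted p = 0.00735), and higher in MDA-MB-435, at 1.30 (1.24 to 1.36, adjusted p = 2.75e-27). SP1, the founding member, had folds of 1.06 (adjusted p = 0.124) and 1.18 (8.45e-07), SP2 had 0.912 (0.238) and 0.937 (0.286), and SP4 had 0.721 (0.00977) and 0.855 (0.0618). SP5 had 24 and 10 counts in MDA-MB-231, against 0 in MDA-MB-435. SP7, SP8 and SP9 were at 0.

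**Figure D4:**
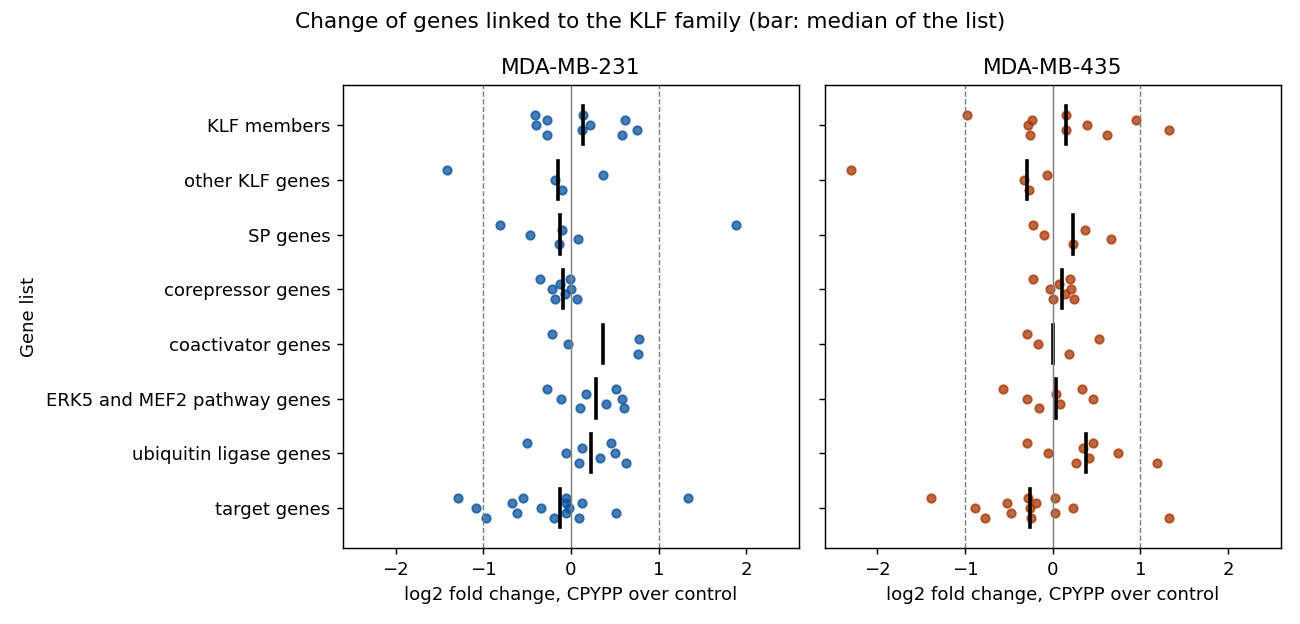
Log2 fold change (horizontal axis, CPYPP over control) of the tested genes of each list in MDA-MB-231 (left) and MDA-MB-435 (right), with 1 point per gene, a bar at the list's median and dashed lines at a fold of 2. The medians lie between -0.14 and 0.37 in MDA-MB-231 and between -0.30 and 0.38 in MDA-MB-435.

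Genes that act with the KLF proteins were read from the same fits. The corepressor genes (CTBP1, CTBP2, SIN3A, SIN3B, SAP30, HDAC1, HDAC2 and HDAC3) had median log2 fold changes of -0.09 in MDA-MB-231, with 0 of 8 higher and 4 lower, and 0.10 in MDA-MB-435, with 3 higher and 1 lower. None was called. HDAC2, the member with the most counts, had 5746 and 4200 counts in MDA-MB-231, against 3795 and 3415 in MDA-MB-435, with folds of 0.998 (0.959 to 1.04) and 1.16 (1.11 to 1.22). Over all genes tested the medians were -0.01 and -0.02, with 24.2% higher and 20.9% lower in MDA-MB-231, against 27.6% higher and 23.2% lower in MDA-MB-435.

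The acetyltransferase genes (EP300, CREBBP, KAT2A and KAT2B) had medians of 0.37 and 0.01, with 2 of 4 higher in each line, 1 lower in MDA-MB-231, against 2 lower in MDA-MB-435. The shares over all genes tested were 24.2% higher and 20.9% lower in the former line and 27.6% and 23.2% in the latter. EP300, which encodes p300, had 1567 and 1968 counts in MDA-MB-231, a fold of 1.71 (1.60 to 1.83, adjusted p = 8.22e-56, exact binomial test), and 4099 and 3618 in MDA-MB-435, a fold of 1.14 (1.09 to 1.19, adjusted p = 7.37e-08). The ERK5 and MEF2 pathway, a kinase cascade known to induce KLF2 and KLF4, had medians of 0.29 and 0.04, with 5 of 8 genes higher and 0 lower in MDA-MB-231, against 2 of 7 higher and 3 lower in MDA-MB-435. Over all genes, 24.2% were higher and 20.9% lower in the first line, and 27.6% and 23.2% in the second. MAP3K2, a kinase of this pathway, had 2838 and 2744 counts in MDA-MB-231, against 2633 and 2800 in MDA-MB-435, with folds of 1.32 (1.25 to 1.39, adjusted p = 9.51e-24) and 1.37 (1.30 to 1.45, adjusted p = 4.71e-30).

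The ubiquitin ligase genes, which include WWP1 and FBXW7, known to mark KLF2 or KLF5 protein for degradation, had medians of 0.23 and 0.38, with 4 of 8 higher and 1 lower in MDA-MB-231, against 6 higher and 1 lower in MDA-MB-435. Against these stand 24.2% higher and 20.9% lower of all genes in MDA-MB-231, and 27.6% and 23.2% of them in MDA-MB-435. SIAH1 was called higher in MDA-MB-435, from 268 to 474 counts at a fold of 2.28 (1.96 to 2.66, adjusted p = 3.46e-27, exact binomial test), against 288 and 230 counts and a fold of 1.09 (0.912 to 1.30, adjusted p = 0.453) in MDA-MB-231.

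Genes known as KLF targets had medians of -0.13 over 16 genes in MDA-MB-231, with 3 higher and 6 lower, and -0.26 over 13 genes in MDA-MB-435, with 2 higher and 8 lower. Of all genes tested, 24.2% were higher and 20.9% lower in the breast cancer line, and 27.6% and 23.2% in the melanoma line. CDKN1A, which encodes the cell cycle inhibitor p21 and is activated by KLF4 and KLF6, had 1599 and 2948 counts in MDA-MB-231, against 898 and 1753 in MDA-MB-435. It was called higher in both lines at a fold of 2.52 (2.37 to 2.68 in MDA-MB-231, against 2.32 to 2.73 in MDA-MB-435). PLAU, which encodes urokinase, had 7489 and 2582 counts in MDA-MB-231, against 260 and 77 in MDA-MB-435, and was called lower in both, at 0.471 (0.450 to 0.492) and 0.382 (0.292 to 0.494). These genes have many regulators besides the KLF proteins, and no protein or binding data were used.

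In transcript structure the members ranged widely. Their genes span from 3860 bases (KLF2) to 108831 bases (KLF13), where the median gene spans 28128. In the 3′ untranslated region of the representative GENCODE v29 transcript, all 10 carried the AU-rich pentamer ATTTA, a sequence known from short-lived mRNAs, which 62.8% of 18854 genes carried. The number ran from 2 in KLF4 (899 bases) to 20 in KLF7 (7076 bases). The shortest of these regions had 843 bases (KLF2), against a median of 809 over all genes, and a longer region has more places for a pentamer. Per kilobase, KLF2 with 3.56 and KLF5 with 3.02 had the most and KLF13 with 0.893 had the least, against a median of 1.34 over all genes. The nonamer TTATTTATT was in KLF5 alone of the 10, and in 7.19% of all genes. These features were not compared with the counts.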

How the data were processed

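Each of the 4 conditions gave 1 library of poly(A) RNA. By the submitters' processing notes, which name cutadapt 1.9.1, HISAT2 2.2.1, HTSeq 0.6.1, DESeq2 and the build GRCh37.p13, reads were trimmed, aligned and counted. The authors deposited raw counts per gene with no normalization, beside positions and exon lengths. Of 58254 identifiers also in GENCODE v29, 58196 had an overlapping position, so positions here are those of GRCh38. The strand setting is not given in the sources used here. The culture and treatment text of all samples mentions only MDA-MB-435, so lines were taken from the cell line label.

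TMM factors (0.950 to 1.05) were computed within each line with edgeR 4.0.16 in R 4.3.3 over genes with at least 10 counts in 1 of its 2 libraries. For a fold, any count below 3 was raised to 3. The interval of a ratio of folds is a 95% Wald interval on the log scale. Controls were compared after TMM over the 2 controls. The common effect used glmQLFit and glmQLFTest after filterByExpr (common dispersion 0.0146). Simulated data with 200 genes changed by a fold of 4 gave 100% recovery in the MDA-MB-231 and MDA-MB-435 comparisons with 3 false calls each, and in the common effect with 2. Only well-counted genes were changed. The simulations of a single line held counting error alone, and that of the common effect a small fixed variation and the same fold in both lines. They checked the code and do not show how often calls in the real libraries are right.

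Named genes were the 10 members, other KLF genes, SP genes and transcripts named after a member with at least 10 counts in a library, and, of each further list, the called genes or the gene with the most counts. Cell type markers served only to check the cell line labels and are all given. The members and lists were chosen with earlier results of these data known. The alternatives were total counts, DESeq2 1.42.0 size factors, upper quartile scaling, 2 other filters, assumed coefficients of variation, DESeq2 for the common effect and no block, and TMM over all 4 libraries was added after the data were seen. Python 3.11.15, numpy 2.4.6, pandas 2.3.3 and matplotlib 3.10.9 served for tables and figures. Protein sequences were not used here.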

Additional observations from a re-analysis of the deposited data

Results flagged for a closer look

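For 6 KLF and SP genes the CPYPP library lay on opposite sides of its control in the 2 lines. They were picked by sign alone, at any p. Tested were 10 members, 4 other KLF genes and 6 SP genes in MDA-MB-231, against 10, 4 and 5 in MDA-MB-435. The share of all genes with opposite signs was not worked out, so the number is not a result about these families. The difference between the lines was not tested, because there was 1 library per condition. The ratio of the fold in MDA-MB-435 to the fold in MDA-MB-231 was 1.86 (1.34 to 2.58) for KLF2, 1.35 (1.27 to 1.43) for KLF6 and 1.40 (1.31 to 1.49) for SP3, which were higher with CPYPP in MDA-MB-435 by an exact binomial test of the reads. It was 0.496 (0.358 to 0.686) for KLF9, 0.552 (0.445 to 0.685) for KLF13 and 0.743 (0.648 to 0.853) for KLF12, which were higher with CPYPP in MDA-MB-231. The intervals are 95% intervals for counting error only. For KLF2 in MDA-MB-231 and KLF12 in MDA-MB-435 the adjusted p was above 0.05 (0.331 and 0.478), so that the opposite sign in that line was within counting error.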

How the results depend on the processing

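The only pairing was that of control and CPYPP within a line, by the line block of the common effect. With 1 library per condition there were no replicate numbers to block on, and no replicate could be left out. The counts of calls depended most on the assumed variation between cultures. With assumed biological coefficients of variation of 0.1, 0.2 and 0.4, the 694 genes called higher in MDA-MB-231 became 461, 113 and 4, and the 508 called lower became 285, 43 and 0. In MDA-MB-435 the 524 called higher became 124 and 13, and the 1078 called lower 147 and 1, at 0.2 and 0.4. There the number of KLF members called higher went from 1 to 0 at 0.2 and 0.4 (KLF5, adjusted p = 0.196 at 0.2 by edgeR's exact test). Asking for at least 10 counts in both libraries left 457 higher and 271 lower in MDA-MB-231, while in MDA-MB-435 602 were lower. The KLF members called lower in MDA-MB-435 went from 0 to 1, namely KLF10, under total counts, upper quartile and TMM over all 4 libraries. Total counts moved the median log2 fold change of all genes from -0.01 to -0.08 in MDA-MB-231 and from -0.02 to -0.16 in MDA-MB-435, where upper quartile moved it to -0.13, and KLF3 and KLF6 in MDA-MB-435 lost their adjusted p under 0.05 with either scaling, as did KLF3 there with TMM over all 4 libraries (0.174). With no filter on low counts, KLF7 in MDA-MB-231 (adjusted p = 0.0582) and KLF3 and KLF9 in MDA-MB-435 (0.0638 and 0.0735) missed 0.05 in the binomial test. Higher genes were 32.7% of the calls in MDA-MB-435 and 19.9% under total counts. In the common effect, 2 members passed, against 1 with DESeq2 (KLF10, adjusted p = 0.0240) and 0 without the line block, where 0 of 16801 genes passed in edgeR and 167 had an unadjusted p under 0.05. Without that block the log2 fold changes of KLF9 and KLF13 turned to -0.0725 and -0.0770, and the cause was not tested. Without a filter, KLF11 passed (adjusted p = 0.0361, edgeR). Depth limits the precision most for KLF5 in MDA-MB-435 (42 and 82 counts) and for KLF2 and KLF9 in MDA-MB-231 (74 to 122 counts).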
